A study of Homo sapiens with 12 samples.

Results

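miR-21, miR-221, miR-222 and the miR-181 family are miRNAs known for their raised levels in multiple myeloma (MM) plasma cells and in other cancers. Their steady-state levels were followed here in OCI-My5 cells, an established human MM cell line, in which the level of argonaute 2 (AGO2, gene symbol EIF2C2 in the labels) was changed or which were treated with lenalidomide. All assays for these miRNAs on the array were taken, whichever arm of the hairpin they measure. This gave 12 members among the miRNA assays in the 384 wells, of which 7 measure the guide arm (hsa-miR-21-5p, hsa-miR-221-3p, hsa-miR-222-3p, hsa-miR-181a-5p, hsa-miR-181b-5p, hsa-miR-181c-5p and hsa-miR-181d-5p) and 5 the other arm (hsa-miR-21-3p, hsa-miR-221-5p, hsa-miR-222-5p, hsa-miR-181a-3p and hsa-miR-181c-3p). The prefix hsa, for human, is left out from here on.

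A miRNA hairpin is cut into a duplex of a 5p and a 3p strand. One strand, the guide, is usually kept by an argonaute protein and directs it to messenger RNAs through its seed, whereas the other strand is mostly lost. AGO2 is the argonaute that can itself cut RNA, and miRNAs bound to argonaute proteins are protected from decay. miR-21 is known to act against PDCD4, miR-221 and miR-222 act against the cell cycle inhibitors p27 and p57, and the miR-181 family is best known for its part in lymphocyte development. Lenalidomide is an immunomodulatory drug (IMiD) that binds cereblon (CRBN), the substrate receptor of an E3 ubiquitin ligase.

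Total RNA of 12 conditions was measured, each on 1 miScript miRNA PCR Array. My5.LV cells are OCI-My5 cells that carry the lentiviral vector and express little CRBN, and My5.CRBN cells are OCI-My5 cells that express CRBN from the same kind of vector. Per the methods, both were sorted for the GFP of that vector after infection. Each cell line was measured un-treated, with AGO2-sh72 (an shRNA against AGO2), with AGO2 cDNA (a tagged AGO2 in a vector with the CMV promoter), with 10 μM lenalidomide for 72 or 120 hours, and with AGO2 cDNA and 10 μM lenalidomide for 72 hours. The AGO2-sh72 and AGO2 cDNA cells had been infected with virus once again and, per the methods, selected with puromycin. The un-treated cells had neither this further infection nor the selection. No array of cells with an empty shRNA or cDNA vector, or with the solvent of lenalidomide, is among the 12, so the change of AGO2 and the infection and selection cannot be told apart. The level of AGO2 itself is not measured by the array. Per the paper, RNA was taken after 72 hours of AGO2-sh72 or AGO2 cDNA, and AGO2-sh72 induced cell death in both cell lines.

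The level of a miRNA is given on a log2 scale as the mean threshold cycle (Ct) of the 6 small-RNA control wells of an array (SNORD61, SNORD68, SNORD72, SNORD95, SNORD96A and RNU6-2) minus the Ct of the miRNA, with Ct values over 35 set to 35. A value of 0 is the level of the controls, and 1 unit is 1 PCR cycle or a factor of 2. Levels of different miRNAs depend on the efficiency of each assay, and their order is therefore that of Ct values. With 1 array per condition, no difference has a replicate check and no p-value is given. As an error, a log2 fold change is followed by the SD among the 6 control wells of how each of them differed between the same arrays. Changes of at least 3 fold are counted. The mean Ct of the control wells lay between 18.7 and 21.9, and between 324 and 367 miRNAs per array had a Ct under 35. Duplicate wells on 1 array differed by a root mean square of 0.187 cycles where they held the control for reverse transcription, and of 0.383 cycles where they held the control for PCR. The third duplicate, cel-miR-39-3p, had Ct values from 31.5 to the cap and differed by a root mean square of 1.43 cycles and by up to 2.38 cycles. The 6 control wells lie at low Ct, and their SD may be too small an error for members of high Ct such as miR-222-5p.

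RefSeq (GRCh38.p14) gives the mature sequences of 10 of the 12 members. The guide arms are shown because their seeds (bases 2 to 8, in capitals) divide them into 3 groups, and the distance between the sequences bears on how well the assays can separate them.
miR-21-5p: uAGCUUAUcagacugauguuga
miR-221-3p: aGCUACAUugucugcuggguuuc
miR-222-3p: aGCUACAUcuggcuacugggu
miR-181a-5p: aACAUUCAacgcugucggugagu
miR-181b-5p: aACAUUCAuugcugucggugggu
miR-181c-5p: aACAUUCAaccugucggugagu
miR-181d-5p: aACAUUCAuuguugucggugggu
miR-221-3p and miR-222-3p share 1 seed and the 4 miR-181 guide arms share another. Counted from the 5′ end, miR-181b-5p differs from miR-181a-5p at A9U, C10U and A21G, and miR-181d-5p differs from miR-181b-5p at C12U alone. miR-181c-5p is 1 edit away from miR-181a-5p. Signal of 1 member in the assay of another was not tested.

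The other arms of miR-181a and miR-181c are shown because their levels moved apart from each other in the AGO2-sh72 cells (capitals again mark the seed).
miR-181a-3p: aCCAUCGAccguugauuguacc
miR-181c-3p: aACCAUCGaccguugaguggac
They share a run of 15 bases, which starts at base 1 of miR-181a-3p and at base 2 of miR-181c-3p, and their seeds are therefore shifted by 1 base. The hairpin of miR-181c (MIR181C, chr19:13874699-13874808, plus strand) is shown because the balance of its arms changed more than in the hairpins of the other members, with the 5p arm and then the 3p arm in capitals.
miR-181c hairpin: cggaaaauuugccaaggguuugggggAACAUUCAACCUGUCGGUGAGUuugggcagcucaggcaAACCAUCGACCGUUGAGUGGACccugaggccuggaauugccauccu

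In GRCh38.p14, MIR21 lies on chromosome 17 (59841266 to 59841337) within the span of the protein-coding gene VMP1. MIR221 and MIR222 lie 749 bases apart on the X chromosome in MIR222HG, a host gene of noncoding RNA. The miR-181 guide arms come from 3 pairs of neighbouring genes. MIR181A1 and MIR181B1 lie 62 bases apart on chromosome 1 (MIR181A1HG), MIR181A2 and MIR181B2 lie 1159 bases apart on chromosome 9 within NR6A1 and MIR181A2HG, and MIR181C and MIR181D lie 67 bases apart on chromosome 19 within the span of NANOS3. The array has 1 assay for the common product of MIR181A1 and MIR181A2, and 1 for that of MIR181B1 and MIR181B2.

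The miRNAs that mark blood cells and lymphocytes were high in part. miR-142-3p had the highest mean level of all miRNAs (median 3.83), miR-142-5p was at rank 43 and the lymphocyte miRNA miR-150-5p was at rank 27 (median -0.18), whereas miR-155-5p was at rank 311 and under the cap on 11 of the 12 arrays. The myeloid miR-223-3p was at rank 196, and the erythroid miR-486-5p and miR-451a at ranks 135 and 235. Of 5 epithelial miRNAs the highest was miR-200c-3p at rank 110, of the neural ones miR-9-5p at rank 84, and the liver miRNA miR-122-5p was at rank 339. The muscle miRNA miR-1 was at rank 41, with levels from -3.20 to 0.04, and the muscle miRNAs miR-133b, miR-133a-3p and miR-206 were at ranks 87, 96 and 257.

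Of the 12 members, 11 had a Ct under 35 on all 12 arrays. The exception was miR-221-5p, the other arm of miR-221, which was undetermined on 7 arrays and crossed the threshold after cycle 35 on 5, the earliest at 35.6 in My5.LV cells with AGO2 cDNA and lenalidomide. It has no fold change in any comparison, and its guide arm miR-221-3p had Ct values from 28.4 to 30.9.

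miR-21-5p had the highest level of the members on all 12 arrays. Its level was 2.15 in un-treated My5.LV cells and 2.01 in un-treated My5.CRBN cells, and its mean level of 2.44 was at rank 4 of all miRNAs. Then followed the guide arms of miR-181b (mean level -1.18, rank 45), miR-181a (-1.55, rank 49) and miR-181c (-1.90, rank 52), whose ranges over the 12 arrays overlapped. miR-181d-5p, which comes from the same cluster as miR-181c-5p, was lower (-4.83, rank 95), and it stayed below miR-181c-5p on 12 of 12 arrays by 1.96 to 3.54 cycles. The ranges of miR-21-5p and miR-181b-5p did not overlap, nor did those of miR-181c-5p and miR-181d-5p.

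The other arms and the guide arms of miR-221 and miR-222 were low. miR-181c-3p (mean level -7.06), miR-21-3p (-7.51) and miR-181a-3p (-7.64) had overlapping ranges. miR-222-3p (-8.50, rank 194) and miR-221-3p (-9.36, rank 232) were the lowest guide arms, and miR-222-5p was lower still (-11.63, rank 296). The highest level of miR-181c-3p (-5.63) lay above the lowest of miR-181d-5p (-6.13), and the highest level of miR-222-5p (-10.26) lay just above the lowest of miR-221-3p (-10.31). Over the 12 arrays the level of a member moved by 1.37 (miR-181a-3p) to 3.23 (miR-222-5p), beside a median range of 2.43 for the 314 miRNAs under the cap on all arrays.

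**Figure D1:**
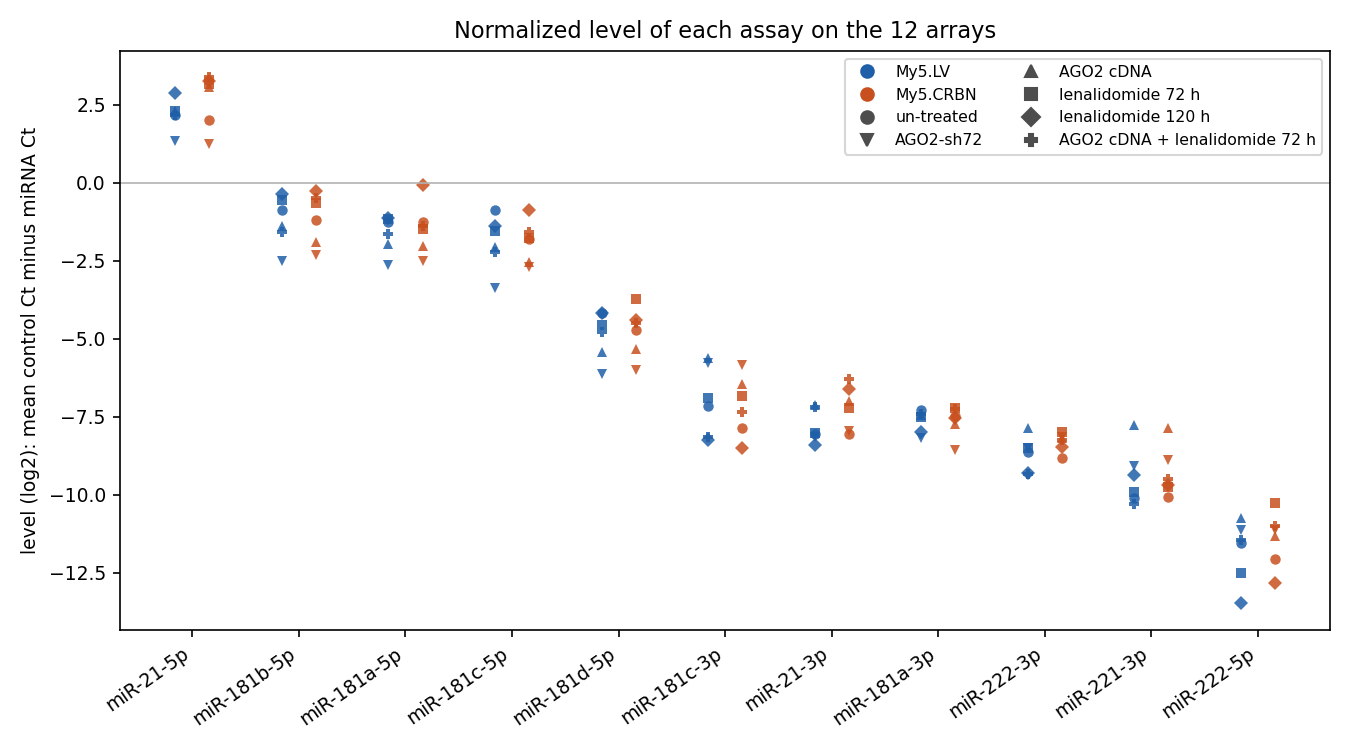
Normalized level (log2, mean Ct of the 6 control wells minus miRNA Ct) of the 11 members under the Ct cap, in order of their mean level. Each point is 1 array, coloured by cell line and shaped by treatment; miR-21-5p lies above 1.2 on all arrays, and the AGO2-sh72 arrays (downward triangles) give the lowest level of all 4 miR-181 guide arms in both cell lines.

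To see what silencing of AGO2 does to these miRNAs, cells with AGO2-sh72 were compared with un-treated cells. The guide arms of the miR-181 family were all lower with AGO2-sh72, whereas miR-181c-3p and miR-221-3p were higher, in both cell lines. In My5.LV cells, 3 of the 11 members with a value (miR-181b-5p, miR-181c-5p and miR-181d-5p) passed 3 fold downward, beside 24.2% of all miRNAs with a value, and none did so upward (1.93%). In My5.CRBN cells no member was at least 3 fold lower (13.3%), and miR-181c-3p was at least 3 fold higher (1.67%).

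The level of miR-181c-5p was -0.88 in un-treated My5.LV cells and -3.37 with AGO2-sh72, a log2 fold change of -2.49 ± 0.51 (SD of the 6 control wells). In My5.CRBN cells it was -1.81 un-treated and -2.71 with AGO2-sh72, a log2 fold change of -0.90 ± 0.30. The un-treated My5.LV array had the second highest level of this miRNA among the 12, and the 2 arrays with AGO2-sh72 had the lowest.

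The log2 fold change of miR-181d-5p was -1.96 in My5.LV cells and -1.28 in the My5.CRBN line. For miR-181b-5p it was -1.62 and -1.13, and for miR-181a-5p, which did not reach 3 fold in either cell line, -1.36 and -1.24. All 4 lay below the median of all miRNAs, which was itself -0.81 in My5.LV cells and -0.58 in the My5.CRBN line. miR-21-5p stood near that median, at -0.83 and -0.78, and AGO2-sh72 gave its lowest levels in both cell lines (1.32 and 1.23).

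miRNAs of low Ct were lower as a group, with a median of -1.57 over the 50 miRNAs whose mean Ct was under 22 in My5.LV cells with AGO2-sh72. For each member, the median log2 fold change of the 51 miRNAs nearest to it in Ct was taken, an alternative chosen after seeing the data. In My5.LV cells this was -1.63 for miR-181b-5p, which itself had -1.62, and -1.65 for miR-181c-5p, which lay 0.84 lower. miR-181a-5p lay 0.30 above its neighbours in Ct and miR-181d-5p 0.59 below them, so that 2 of the 4 guide arms were below miRNAs of similar Ct. In My5.CRBN cells miR-181a-5p, miR-181b-5p, miR-181c-5p and miR-181d-5p lay between 0.28 below and 0.26 above their neighbours in Ct, and miR-21-5p lay 0.75 (My5.LV) and 0.45 (My5.CRBN) above them. With the global mean of the 314 miRNAs as normalizer, which moved the median of all miRNAs to 0.05 in My5.LV cells and to -0.03 in My5.CRBN cells, the 4 guide arms still lay at -0.50 to -1.63 in My5.LV cells and -0.36 to -0.74 in My5.CRBN cells.

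miR-181c-3p went the other way. Its level was -7.15 in un-treated My5.LV cells and -5.78 with AGO2-sh72 (log2 fold change 1.36 ± 0.51), and -7.85 and -5.85 in My5.CRBN cells (2.00 ± 0.30, 4.01 fold). With RNU6 alone as normalizer these changes were 0.38 and 1.55, both under 3 fold, and against the miRNAs of similar Ct they were 1.97 and 2.59. The similar miR-181a-3p had log2 fold changes of -0.89 and -1.09.

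miR-221-3p was also higher, by 1.01 ± 0.51 in My5.LV cells and by 1.16 ± 0.30 in My5.CRBN cells, although with RNU6 alone its log2 fold change in My5.LV cells was 0.03. Its partner miR-222-3p had 0.13 and 0.68, and it turned to -0.85 in My5.LV cells with RNU6 alone. RNU6-2 stood apart from the mean of the 6 controls by 0.98 in this My5.LV comparison, the most of any control well.

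**Figure D2:**
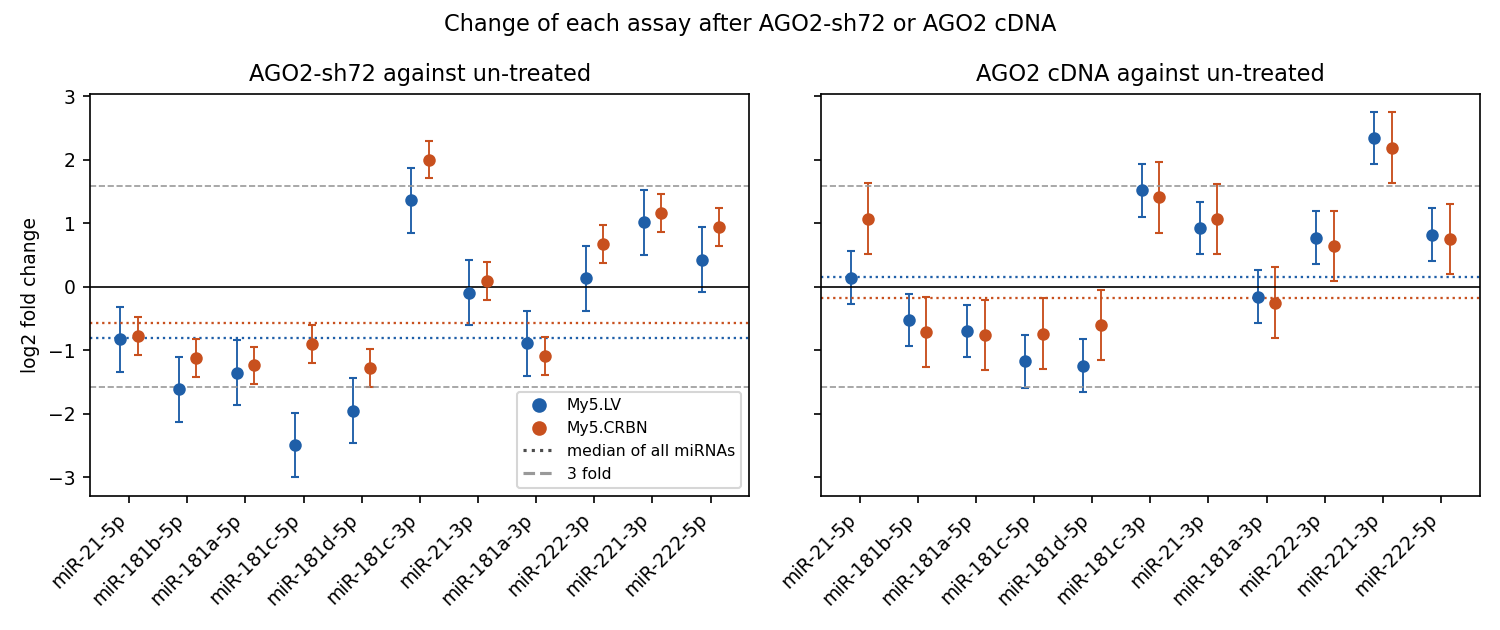
Log2 fold change of the 11 members after AGO2-sh72 (left) and AGO2 cDNA (right) relative to the un-treated array of that line, with bars for the SD of the 6 control wells, dotted lines at the median of all miRNAs and dashed lines at 3 fold. The 4 miR-181 guide arms lie below 0 in all 4 comparisons, and miR-221-3p lies above 3 fold after AGO2 cDNA in both cell lines.

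The expression of AGO2 cDNA gave the reverse question, against the same un-treated arrays. miR-221-3p was the member with the largest change, at least 3 fold higher in both cell lines, and the miR-181 guide arms were again below their un-treated levels. In each cell line 1 of 11 members (miR-221-3p) was at least 3 fold higher, beside 6.04% of all miRNAs in My5.LV cells and 2.28% in the My5.CRBN line. No member was at least 3 fold lower, beside 0.824% and 6.55%.

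The level of miR-221-3p was -10.11 in un-treated My5.LV cells and -7.77 with AGO2 cDNA, a log2 fold change of 2.34 ± 0.41 (5.07 fold). In My5.CRBN cells it was -10.06 and -7.87, a log2 fold change of 2.19 ± 0.56 (4.57 fold). Over the 7 alternatives of normalizer, cap and filter, its change stayed between 1.70 and 2.47 in My5.LV cells and between 1.96 and 2.63 in My5.CRBN cells.

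miR-222-3p, which shares the seed and the cluster of miR-221-3p, had log2 fold changes of 0.77 and 0.64. The difference between these guide arms on 1 array is free of the normalizer. miR-221-3p was below miR-222-3p by 1.48 cycles in un-treated My5.LV cells and by 1.25 cycles in un-treated My5.CRBN cells, and above it by 0.09 and 0.30 cycles with AGO2 cDNA. These were the 2 arrays on which miR-221-3p was the higher of them. With AGO2-sh72 miR-221-3p was lower by 0.59 and 0.76 cycles. With lenalidomide alone the difference was 1.40 and 1.78 cycles after 72 hours, and 0.04 (My5.LV) and 1.23 (My5.CRBN) cycles after 120 hours. With AGO2 cDNA and lenalidomide together it was 0.97 and 1.25 cycles, with miR-221-3p the lower, and the log2 fold changes of miR-221-3p against un-treated cells were -0.21 ± 0.67 and 0.57 ± 0.37. The 2 AGO2 cDNA arrays with the high level of miR-221-3p were thus those without lenalidomide.

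**Figure D3:**
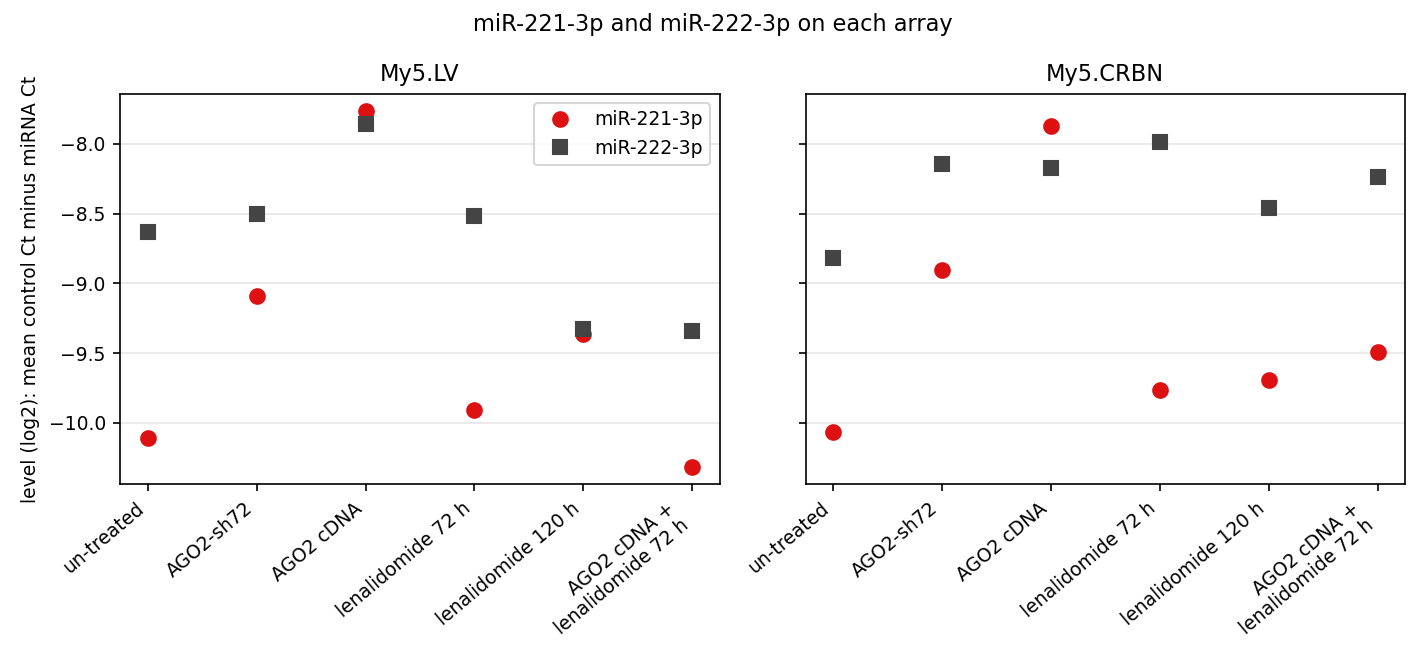
Level (log2) of miR-221-3p (circles) and miR-222-3p (squares) on each array, with My5.LV cells on the left and My5.CRBN cells on the right. miR-221-3p reaches its highest levels, -7.77 and -7.87, with AGO2 cDNA alone, where it lies just above miR-222-3p.

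The 4 miR-181 guide arms had log2 fold changes from -0.52 to -1.24 in My5.LV cells with AGO2 cDNA and from -0.60 to -0.76 in My5.CRBN cells, all below the medians of all miRNAs (0.15 and -0.17). They stayed below 0 in both cell lines under all 7 alternatives. miR-181c-3p was again higher, at 1.52 ± 0.41 and 1.41 ± 0.56. miR-21-5p had 0.14 in My5.LV cells, a sign that turned with RNU6 alone (-0.49), the reverse transcription control wells (-0.18) and the global mean (-0.04), and 1.07 ± 0.56 in My5.CRBN cells, and miR-21-3p had 0.92 and 1.06.

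When cells with AGO2 cDNA were compared with cells with AGO2-sh72, all 7 guide arms were higher in My5.LV cells, by 0.64 (miR-222-3p) to 1.33 (miR-221-3p), beside a median of 0.92 over all miRNAs. The global mean, which moved that median to -0.13, left these differences between miRNAs as they were, and miR-21-5p (-0.07), miR-222-3p (-0.40), miR-181a-5p (-0.39) and miR-181d-5p (-0.33) were then below 0. Against miRNAs of similar Ct miR-21-5p (-0.46) and the 4 miR-181 guide arms (-0.08 to -0.66) were below 0. With the 6 control wells none reached 3 fold, whereas 23% of all miRNAs did so upward and 0.277% downward. In My5.CRBN cells 6 of the 7 were above 0, where the median over all miRNAs was itself 0.35. miR-21-5p alone among the members was at least 3 fold higher (1.85 ± 0.39), beside 10.6% of all miRNAs, and none was lower by that much (3.64%). With the global mean the change of miR-21-5p was 1.54 and against miRNAs of similar Ct 0.82, both under 3 fold. Against miRNAs of similar Ct the 4 miR-181 guide arms lay below 0 in these cells too (-0.25 to -0.86). These comparisons share their arrays with those against un-treated cells and add no further measurement.

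The arms of a hairpin can be compared on 1 array without a normalizer. miR-181c-5p stood above miR-181c-3p by 6.27 cycles in un-treated My5.LV cells and by 6.04 cycles in un-treated My5.CRBN cells. The gap was 2.41 and 3.14 cycles with AGO2-sh72, and 3.58 and 3.90 cycles with AGO2 cDNA. It was 5.36 and 5.07 cycles after 72 hours of lenalidomide, 6.86 and 7.64 cycles after 120 hours, and 5.95 and 5.75 cycles with AGO2 cDNA and lenalidomide. The 4 arrays with AGO2-sh72 or AGO2 cDNA alone thus had the smallest gaps, without overlap with the other 8.

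Paired by name, 86 hairpins have both arms on the array. For 63 of them both arms were under the cap on all 12 arrays. The range of the miR-181c gap (5.22 cycles) was the fourth of the 63, whose median was 2.45 cycles. The 3p arm of miR-181c gained 3.86 on its 5p arm with AGO2-sh72 in My5.LV cells, rank 1 of 63, and 2.90 in My5.CRBN cells, rank 2. With AGO2 cDNA it gained 2.69 (rank 2) and 2.15 (rank 3). The minor arm gained on the major arm in most hairpins, with a median of 0.82 and 0.53 after AGO2-sh72 and of 0.56 and 0.34 after AGO2 cDNA.

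The hairpins of miR-21, miR-181a and miR-222 did not share so large a gain. miR-181a-5p comes from MIR181A1 and MIR181A2, whereas the measured miR-181a-3p comes from MIR181A1. The miR-181a values therefore do not compare the arms of 1 hairpin alone. With AGO2-sh72 the other arm gained 0.74 and 0.87 for miR-21, 0.47 and 0.15 for miR-181a, and 0.29 and 0.26 for miR-222. With AGO2 cDNA the values were 0.78 and -0.01 for miR-21, 0.54 and 0.51 for miR-181a, and 0.05 and 0.11 for miR-222. The ranges of their gaps over the 12 arrays, 2.09, 2.00 and 2.26 cycles, were below the median of the 63 hairpins. For miR-181a and miR-181c, whose guide arms differed by at most 0.779 cycles on the 12 arrays, miR-181c-3p minus miR-181a-3p was 0.14 cycles in un-treated My5.LV cells and -0.36 cycles in un-treated My5.CRBN cells. It was 2.40 and 2.74 cycles with AGO2-sh72, and 1.82 and 1.30 cycles with AGO2 cDNA.

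**Figure D4:**
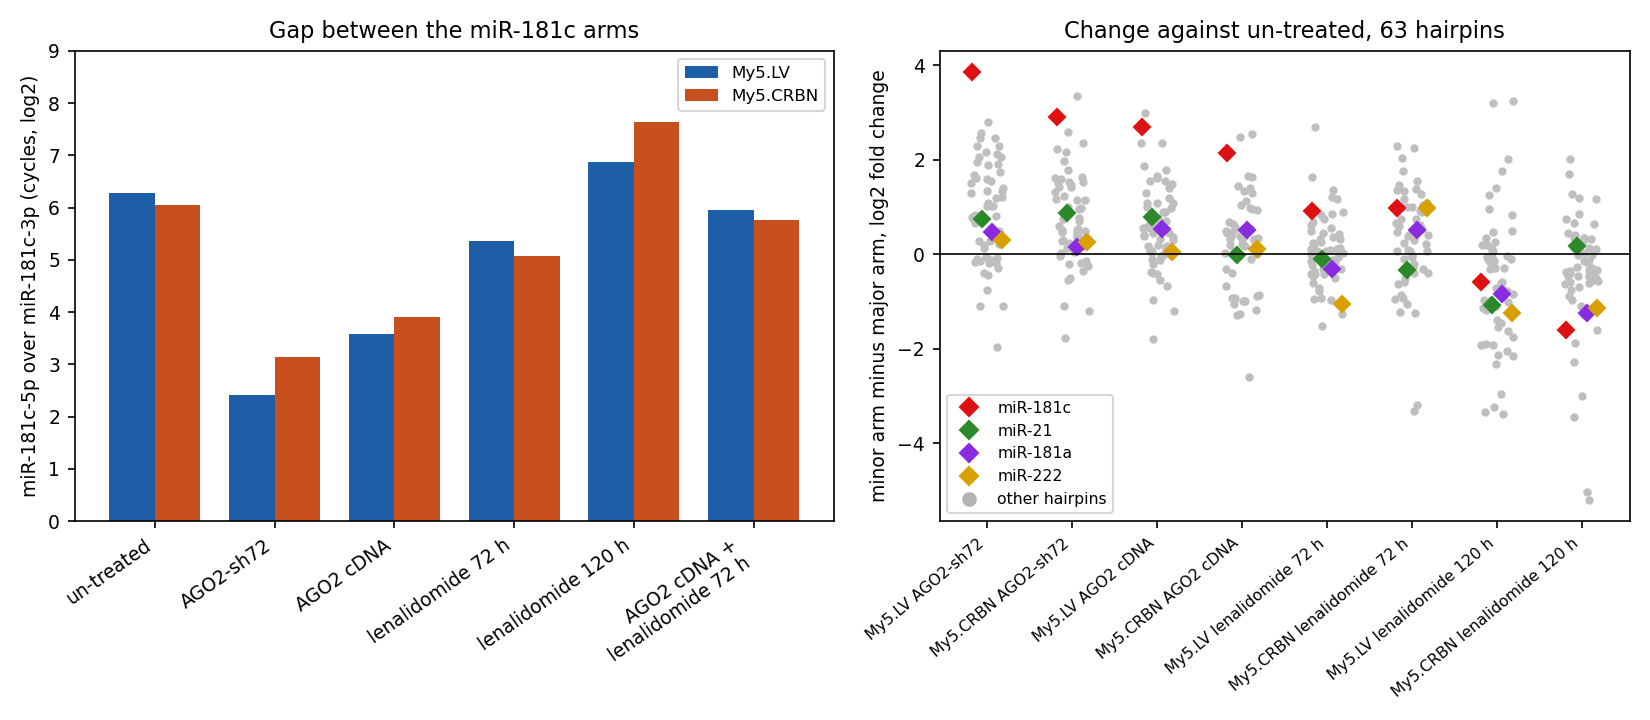
Left, cycles by which miR-181c-5p lies above miR-181c-3p on each array, 1 bar per array. Right, log2 fold change of the minor arm minus that of the major arm against un-treated cells for the 63 hairpins (grey), with the 4 hairpins of miR-181c, miR-21, miR-181a and miR-222 in colour; miR-181c is at the top with AGO2-sh72 in My5.LV cells (3.86) and within the top 3 in the other AGO2-sh72 and AGO2 cDNA comparisons.

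Lenalidomide was given to ask whether these miRNAs follow the drug in CRBN-low and CRBN-high cells. After 72 hours no member reached 3 fold in My5.LV cells, where 0.549% of all miRNAs did so in either direction. In My5.CRBN cells miR-222-5p passed 3 fold upward (1.80 ± 0.22), beside 10.1% of all miRNAs (0.272% lower), at Ct values of 32.9 without and 29.3 with the drug. This change was under 3 fold with the global mean (1.45) and against miRNAs of similar Ct (1.16). At a Ct cap of 32, which cut the Ct of 32.9, it was at least 0.95. miR-21-5p was higher in My5.CRBN cells by 1.15 ± 0.22, at levels of 2.01 and 3.15, beside 0.14 ± 0.18 in My5.LV cells at levels of 2.15 and 2.29. The median of all miRNAs was 0.32 in My5.CRBN cells.

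After 120 hours all 7 guide arms were above their un-treated levels in My5.CRBN cells, and no member reached 3 fold in either direction (5.23% of all miRNAs higher and 11.3% lower). The largest change was that of miR-21-3p (1.44 ± 0.22), which passed 3 fold against miRNAs of similar Ct (1.72) and when RNU6 or the global mean was the normalizer. miR-21-5p had 1.26 ± 0.22, miR-181a-5p 1.18, miR-181c-5p 0.95 and miR-181b-5p 0.94, while the median of all miRNAs was -0.14. These values kept their sign under all 7 alternatives. The My5.CRBN array of this time gave the highest levels of miR-181a-5p (-0.08), miR-181b-5p (-0.26) and miR-181c-5p (-0.86) among the 12.

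In My5.LV cells the miR-181 guide arms lay between -0.52 and 0.50 after 120 hours, with a control SD of 0.41, and miR-21-5p had 0.71. Against miRNAs of similar Ct miR-21-5p had 0.23, and the miR-181 guide arms lay between -1.02 (miR-181c-5p) and 0.04. miR-222-5p was at least 3 fold lower (-1.93 ± 0.41), beside 14.6% of all miRNAs, at a Ct of 33.1, and no member was higher by that much (4.42%). This change was under 3 fold against miRNAs of similar Ct (-1.23). At a Ct cap of 32 it was -0.84, which is only a bound, since the Ct of 33.1 was then cut to 32.

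**Figure D5:**
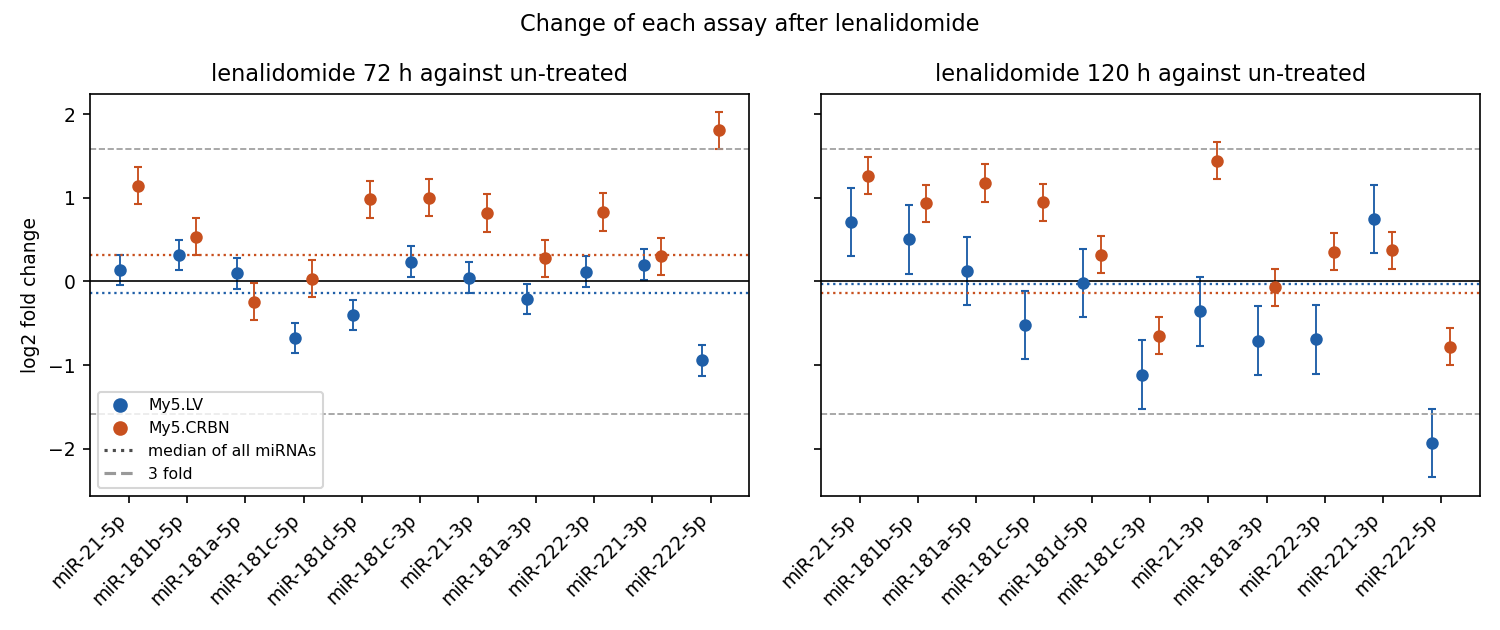
Log2 fold change of the 11 members after 72 hours (left) and 120 hours (right) of 10 μM lenalidomide relative to the un-treated array of that line, with bars, dotted and dashed lines as for AGO2-sh72 above. In My5.CRBN cells miR-21-5p lies above 1 at both times, and miR-222-5p passes 3 fold upward after 72 hours there and downward in My5.LV cells after 120 hours.

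With AGO2 cDNA and 72 hours of lenalidomide, the My5.CRBN array passed 3 fold upward for miR-21-3p (1.75 ± 0.37), beside 4.41% of all miRNAs (0.826% downward), and miR-21-5p was higher by 1.38. With RNU6 alone the change of miR-21-3p was 1.07, under 3 fold. In My5.LV cells no member reached 3 fold against un-treated cells (2.47% of all miRNAs higher, 5.21% lower), and miR-181c-5p had the largest change (-1.33 ± 0.67). With RNU6 alone, 5 members were at least 3 fold lower there (miR-181c-5p -2.50), where the median of all miRNAs was itself -1.33. Against lenalidomide alone no member reached 3 fold in either cell line, beside 1.09% of all miRNAs higher and 4.37% lower in My5.LV cells, and 1.09% and 7.07% in My5.CRBN cells. miR-21-5p had -0.11 and 0.23 in that comparison, and miR-181c-3p had -1.25 ± 0.58 and -0.50 ± 0.45.

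To set the cell lines side by side without treatment, un-treated My5.CRBN cells were compared with un-treated My5.LV cells. They were infected and sorted separately, and the paper reports less AGO2 protein in My5.CRBN cells, so CRBN is not the only difference. No member differed by 3 fold, beside 2.23% of all miRNAs higher and 1.96% lower in My5.CRBN cells. miR-21-5p differed by -0.15 ± 0.22 and miR-221-3p by 0.04, and the largest difference was that of miR-181c-5p (-0.93 ± 0.22). With lenalidomide, My5.CRBN cells passed 3 fold over My5.LV cells for miR-222-5p after 72 hours (2.24 ± 0.32, beside 9.51% of all miRNAs higher and 0.543% lower) and for miR-21-3p after 120 hours (1.81 ± 0.43, beside 6.54% in each direction). At a Ct cap of 32, which cut the My5.LV Ct of 32.9, the difference of miR-222-5p was at least 1.37. No member differed by 3 fold with AGO2-sh72 (3.31% of all miRNAs higher and 0.826% lower), with AGO2 cDNA (1.68% and 9.52%) or with AGO2 cDNA and lenalidomide (5.21% and 1.92%). miR-21-5p was the higher in My5.CRBN cells on all 4 treatments with lenalidomide or AGO2 cDNA, by 0.41 (SD 0.43, after 120 hours) to 1.21 (SD 0.34, AGO2 cDNA with lenalidomide), and differed by -0.09 with AGO2-sh72. Against miRNAs of similar Ct its difference was 0.92 after 120 hours and -0.38 with AGO2-sh72. The arrays of these comparisons are those described above.

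Other miRNAs known to be raised in myeloma were compared as a list of 10 (the guide arms of miR-17, miR-18a, miR-19a, miR-19b, miR-20a, miR-92a, miR-106b, miR-93, miR-25 and miR-32). With AGO2-sh72, 7 of 10 passed 3 fold downward in My5.LV cells and 6 of 10 in My5.CRBN cells, with medians of -1.78 and -1.64, beside the 24.2% and 13.3% of all miRNAs given above. Against miRNAs of similar Ct, 1 of 10 passed 3 fold downward in My5.LV cells and 0 of 10 in My5.CRBN cells, with medians of -0.15 and -0.41. The median of all miRNAs was 0 and -0.005 in that setting, for which no share past 3 fold is given. The largest change was that of miR-32-5p in My5.LV cells (-3.13), and miR-92a-3p changed least (-1.13 and -0.97). With AGO2 cDNA none of the 10 reached 3 fold, where the shares of all miRNAs were 6.04% higher and 0.824% lower in My5.LV cells and 2.28% and 6.55% in the My5.CRBN line, and the medians were -0.20 and -0.29. After 72 hours of lenalidomide none reached 3 fold. The median of the list was then -0.25 in My5.LV cells (-0.13 over all miRNAs), and -0.70 in My5.CRBN cells (-0.42 against miRNAs of similar Ct), where it was 0.32 over all miRNAs and the share at least 3 fold higher was 10.1%. After 120 hours none reached 3 fold (14.6% and 11.3% of all miRNAs lower), with medians of 0.55 in My5.LV cells, where its median was 0.07 against miRNAs of similar Ct, and -0.13 in the My5.CRBN line. With AGO2 cDNA and lenalidomide miR-32-5p (-2.41) passed 3 fold downward in My5.LV cells, 1 of the 10 beside 5.21% of all miRNAs.

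Of 7 miRNAs known as growth-restraining in myeloma (miR-15a-5p, miR-16-5p, miR-29b-3p, miR-34a-5p, miR-192-5p, miR-194-5p and miR-215-5p), 2 (miR-15a-5p and miR-215-5p) were at least 3 fold lower with AGO2-sh72 in My5.LV cells and 1 (miR-15a-5p) in My5.CRBN cells, with medians of -1.22 and -0.62. These counts are near the shares of all miRNAs, 24.2% and 13.3%. Against miRNAs of similar Ct 0 of 7 passed 3 fold in either cell line, and the medians were 0.12 and 0.37. No share of all miRNAs is given in that setting. miR-15a-5p, which lies with miR-16 and acts against BCL2, had -2.01 and -1.92. miR-34a-5p, a miRNA induced by p53, had -0.20 and 0.25. With AGO2 cDNA none of the 7 reached 3 fold in either cell line, where at most 6.55% of all miRNAs did so in a direction. After 72 or 120 hours of lenalidomide none did so either, where at most 14.6% of all miRNAs did so in a direction. The medians of the list were then -0.04 and -0.07 in My5.LV cells and 0.19 and 0.30 in My5.CRBN cells. Against miRNAs of similar Ct they were 0.13 and -0.04 in My5.LV cells and 0.45 and 0.30 in My5.CRBN cells.

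The miRNAs whose levels over the 12 arrays were most like those of 4 guide arms were named by Pearson's r among 313 others under the cap on all arrays. All levels share the normalizer, and the 12 arrays are different conditions, so the values are a description. miR-21-5p was most like miR-424-5p (0.91), miR-455-5p (0.89) and miR-28-5p (0.88), and its r with miR-221-3p was 0.0042. miR-221-3p was most like miR-489-3p (0.80), miR-93-3p (0.75) and miR-181c-3p (0.67), the last of them a member, whereas miR-222-3p was at place 9 (0.59). miR-222-3p was most like miR-649 (0.81), miR-885-5p (0.79) and miR-486-5p (0.79). miR-181a-5p was most like miR-29c-3p (0.95), miR-29a-3p (0.91) and miR-181c-5p (0.90), and its r with miR-181c-3p (-0.82) was at place 311 of 313. When levels were set against the global mean, the third place of miR-21-5p went to miR-223-3p (0.82) and that of miR-181a-5p to miR-101-3p (0.88). miR-222-3p was then most like miR-486-5p, miR-885-5p and miR-181c-3p (0.82), and the r of miR-181a-5p with miR-181c-3p was -0.71, at place 290.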

How the data were processed

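The authors isolated total RNA with the miRNeasy Mini kit, reverse transcribed it with the miScript II RT kit and ran miScript miRNA PCR Arrays with SYBR Green on a real-time PCR instrument. The authors deposited the Ct of each of 384 wells per array, with no normalization. A second deposited file holds the authors' own linear fold changes of 11 arrays against un-treated My5.LV cells, and it was not used.

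Ct values over 35 or undetermined were set to 35, and each was set against the average of the 5 SNORD wells and the RNU6 well of its array. Log2 fold changes were formed for 20 pairs of arrays over all miRNAs. Where both arrays were at the cap, no fold change was formed. As each condition has 1 array, no test was made. Arrays have no sequencing depth, and the precision is that of 1 well. Members are all assays whose name holds miR-21, miR-221, miR-222 or miR-181a to d; miR-21-3p, miR-181a-3p and miR-222-5p were found by this rule beside the 9 members first listed. Other miRNAs were named from fixed lists and, for 4 guide arms, as the 3 with the highest Pearson's r. The members and lists were chosen with earlier results of these data known. Alternatives were 4 other normalizers, a Ct cap of 32, the restriction to miRNAs that both arrays detected before Ct 35 and, chosen after seeing the data, subtraction of the median of 51 miRNAs of similar Ct. Mature and hairpin sequences and positions are from RefSeq (GRCh38.p14). Python 3.11.15, NumPy 2.4.6, pandas 2.3.3 and Matplotlib 3.10.9 were used.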

Additional observations from a re-analysis of the deposited data

Results flagged for a closer look

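In 8 cases a member was above its un-treated level in My5.CRBN cells and below it in My5.LV cells under the same treatment. Each time both changes were larger than the SD of the control wells of that comparison. Under every treatment 11 members had a value in both cell lines. The share of all miRNAs that meet the same rule was not counted. The 8 cases therefore do not set the members apart from all miRNAs. The difference between the cell lines was not tested, since each condition has 1 array, and the treatments of 1 cell line are all set against the same un-treated array. After 72 hours of lenalidomide, miR-222-5p had a log2 fold change of 1.80 in My5.CRBN cells and -0.95 in My5.LV cells (difference 2.75), miR-181d-5p had 0.98 and -0.40 (1.39), and miR-181a-3p had 0.28 and -0.21 (0.49). After 120 hours, miR-181c-5p had 0.95 and -0.52 (1.47), and miR-222-3p had 0.35 and -0.69 (1.05). With AGO2 cDNA and 72 hours of lenalidomide, miR-181c-3p had 0.51 and -1.02 (1.52), miR-181b-5p had 0.69 and -0.69 (1.39), and miR-222-3p had 0.58 and -0.71 (1.29). In the last of these treatments RNU6-2 stood above the mean of the controls by 1.16 in My5.LV cells and by 0.68 in My5.CRBN cells. Without RNU6 the differences between the cell lines in this treatment were 1.43, 1.29 and 1.19 in the same order, and the signs were opposite in all 3. With RNU6 alone the My5.CRBN values of miR-181c-3p (-0.18) and miR-222-3p (-0.10) were below 0 as well, and that of miR-181b-5p was 0.01. The My5.LV control SD of this treatment was 0.67. My5.LV values of miR-222-3p and miR-181b-5p lay inside it without RNU6 (-0.48 and -0.46) and with the global mean (-0.50 and -0.48). They also did so against miRNAs of similar Ct (-0.37 and -0.46). After 120 hours the My5.LV value of miR-222-3p was -0.14 against miRNAs of similar Ct, inside a control SD of 0.41. The opposite signs of miR-181a-3p after 72 hours were lost with the global mean (-0.11 for My5.LV, -0.08 for My5.CRBN) and against miRNAs of similar Ct (-0.18 and -0.20). At a Ct cap of 32, which cut Ct values of both cell lines, the difference of miR-222-5p after 72 hours was at least 1.02.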

How the results depend on the processing

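Each comparison is of 1 array with 1 array, from which none can be left out. The cell lines share their treatments and could be paired by treatment, but no paired analysis was run. A fit of cell line and treatment over the 12 arrays, which would take the cell lines as replicates, was not run, and the ranges and Pearson's r over the 12 arrays were not repeated with an array left out. Counts are of members past 3 fold, with the count under the 6 control wells in parentheses. Shares of all miRNAs are given above for the 6 control wells only. Counts under an alternative therefore do not set the members apart from all miRNAs. With the global mean, My5.LV cells with AGO2-sh72 had 2 higher (0) and 1 lower (3), My5.CRBN cells had 2 higher (1) with AGO2-sh72, 2 (1) with AGO2 cDNA, 0 (1) after 72 hours and 1 (0, miR-21-3p) after 120 hours of lenalidomide, and 0 (1, miR-21-5p) with AGO2 cDNA against AGO2-sh72. With RNU6 alone, My5.LV cells had 6 lower (3) with AGO2-sh72, 2 (0) with AGO2 cDNA, 5 (0) with AGO2 cDNA and lenalidomide against un-treated cells and 4 (0) against lenalidomide alone, and 2 higher (0) with AGO2 cDNA against AGO2-sh72. In the same order the median of all miRNAs was -1.79, itself past 3 fold, -0.49, -1.33, -1.17 and 1.26. My5.CRBN cells then had 0 higher (1) and 2 lower (0) with AGO2-sh72, 1 higher (0) after 120 hours of lenalidomide and 0 higher (1) with AGO2 cDNA and lenalidomide. Without RNU6, 2 members (1) were higher in My5.LV cells with AGO2 cDNA. With the reverse transcription control wells, 2 (0) were lower in My5.CRBN cells with AGO2-sh72. At a Ct cap of 32, none (1) was lower in My5.LV cells and 1 (0) was lower in My5.CRBN cells after 120 hours of lenalidomide, and 0 (1) was higher after 72 hours in My5.CRBN cells, both against un-treated and against My5.LV cells. With the median of 51 miRNAs of similar Ct subtracted (chosen after seeing the data), My5.LV cells with AGO2-sh72 had 1 higher (0) and 0 lower (3), where miR-21-5p turned from -0.83 to 0.75, miR-181a-5p from -1.36 to 0.30 and miR-181b-5p from -1.62 to 0.012, and My5.LV cells had 0 lower (1) after 120 hours of lenalidomide. My5.CRBN cells then had 0 higher (1) after 72 hours, 1 (0) after 120 hours, 2 (1) with AGO2 cDNA and lenalidomide, and 0 (1) with AGO2 cDNA against AGO2-sh72. The cause of these shifts was not tested. The differences between the arms of miR-181c do not depend on the normalizer.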
